A study of Mus musculus with 6 samples.

Results

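The aryl hydrocarbon receptor (AHR) pathway was followed in B16F10 mouse melanoma cells through 7 genes, Ahr, Ahrr, Arnt, Arnt2, Cyp1a1, Cyp1b1 and Tiparp. They were taken by symbol from the 54838 genes of the deposited table. Fold changes of these same libraries were known when the genes were chosen, so the differences between the groups are given for these 7 as descriptions, with no p-value. The groups were control cultures (3 libraries, for which the labels name no vehicle) and cultures treated with fenofibrate at 50 µM (3 libraries). All 6 were mRNA-enriched RNA sequencing libraries, and the labels give no time of treatment. Fenofibrate, a drug that lowers blood lipids, acts after hydrolysis as an activator of the nuclear receptor PPARα.

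AHR is a transcription factor of the bHLH-PAS family that waits in the cytosol in a complex with HSP90 and is activated by planar aromatic ligands such as dioxins, by polycyclic hydrocarbons and by metabolites of tryptophan. With a ligand bound it enters the nucleus, pairs with its partner ARNT and binds dioxin response elements, whose core reads GCGTG. Its best known target is Cyp1a1, whose product oxidises many AHR ligands, and its targets Ahrr and Tiparp encode proteins that restrain the receptor in turn.

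The libraries held 13540038 to 14710856 counts, and the upper limit that a count of 0 leaves in a library is 0.204 to 0.222 CPM, where CPM is the count scaled to the library total. This limit is 3 counts, a one-sided 95% bound, while the two-sided 95% Poisson intervals given with low counts reach 3.69 counts for a count of 0. Normalised CPM use totals scaled by TMM. Such limits and intervals cover counting error only. The cell line field of the labels names a different line for each library, from B16F10 to B16F15, so if it is meant as written, line and treatment cannot be told apart. The labels call the libraries biological triplicates without saying whether they came from separate cultures, so the error between libraries may be technical. All 7 melanocyte markers read were abundant (21209 to 22592 CPM summed in control and 26034 to 27577 with fenofibrate). Markers of hepatocytes, the cells best known for inducing CYP1 enzymes, summed to at most 0.348 CPM in any library, with Alb and Cyp1a2 at 0 throughout. The 4 endothelial markers summed to 0.278 to 0.662 CPM over all libraries, with Cdh5, Kdr and Tek at 0, and the 4 keratinocyte markers to at most 0.142 CPM, with Krt5, Krt1 and Krt10 at 0. The 5 fibroblast markers summed to 1.71 to 3.53 CPM in control and 1.04 to 1.33 CPM with fenofibrate. The 5 immune cell markers summed to 0 to 0.221 CPM in control and 0.812 to 1.09 CPM with fenofibrate, with Cd3e and Adgre1 at 0, and the fenofibrate counts were mostly of Ptprc (6, 10 and 8 counts against 0 in every control). Their part in the values of the 7 genes was not tested.

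The receptor gene was expressed at a low level, with 27.2% of the genes tested below it in mean FPKM, and its groups overlapped. Ahr (ENSMUSG00000019256, GRCm38 chr12:35497974-35535038) had raw counts of 180, 153 and 138 in control and of 228, 180 and 192 with fenofibrate. That corresponds to 11.2 ± 1.55 normalised CPM in control and 14.4 ± 2.43 with fenofibrate (n = 3 per group, mean ± SD), a log2 fold change of 0.36 ± 0.15 SE. Control replicate 1, at 13.0 normalised CPM, lay above fenofibrate replicate 2, at 12.7, and the log2 fold change dropped to 0.22 when fenofibrate replicate 1 was left out. In such bulk samples, fewer cells expressing a gene and less of its RNA per cell cannot be told apart.

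Arnt, the partner that AHR needs to bind DNA, was higher in every fenofibrate library than in every control. Arnt (ENSMUSG00000015522, chr3:95434388-95497240) had 734, 823 and 732 counts in control and 925, 1031 and 946 with fenofibrate. This was 54.5 ± 2.55 against 69.5 ± 3.67 normalised CPM (n = 3 per group, mean ± SD), or 1.28-fold (log2 fold change 0.35 ± 0.06 SE). Its paralog Arnt2 (ENSMUSG00000015709, chr7:84246278-84410176), which is best known from the brain, was barely counted, with 9, 2 and 3 counts in control and 7, 2 and 8 with fenofibrate. Its summed CPM differed 1.18-fold between the groups, with a counting interval from 0.545 to 2.58, so that no difference was detectable at this depth. Without control replicate 1, which held most of the control counts, it was 2.21-fold (0.782 to 7.65). Over the 3 libraries of a group it summed to 14 counts in control and 17 with fenofibrate.

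Of the genes whose products restrain AHR, Tiparp separated the groups and Ahrr did not. Tiparp, whose product attaches ADP-ribose to AHR and promotes its loss, had 1204, 1337 and 1216 counts in control and 2477, 2874 and 2543 with fenofibrate. The 3 fenofibrate libraries lay far above the controls, at 189 ± 13.6 against 89.4 ± 3.41 normalised CPM (n = 3 per group, mean ± SD), or 2.11 times control (1.08 ± 0.06 SE on the log2 scale). Its rise ranked 429 among the 13629 genes tested. The gene (ENSMUSG00000034640, chr3:65528410-65555518) shares 223 exon bases with a pseudogene on the other strand, 4931440P22Rik, which had 51 counts in control and 48 with fenofibrate.

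Ahrr encodes a repressor that competes with AHR for ARNT. The gene (ENSMUSG00000021575, chr13:74211118-74292331) had 73, 98 and 55 counts in control and 61, 73 and 78 with fenofibrate. The fenofibrate values all lay inside the control range, at 5.06 ± 0.416 against 5.36 ± 1.43 normalised CPM (n = 3 per group, mean ± SD). On the log2 scale the difference, fenofibrate minus control, was -0.08 ± 0.21 SE (95% interval -0.57 to 0.40). Without control replicate 2, the highest of all, it was 0.13.

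**Figure D1:**
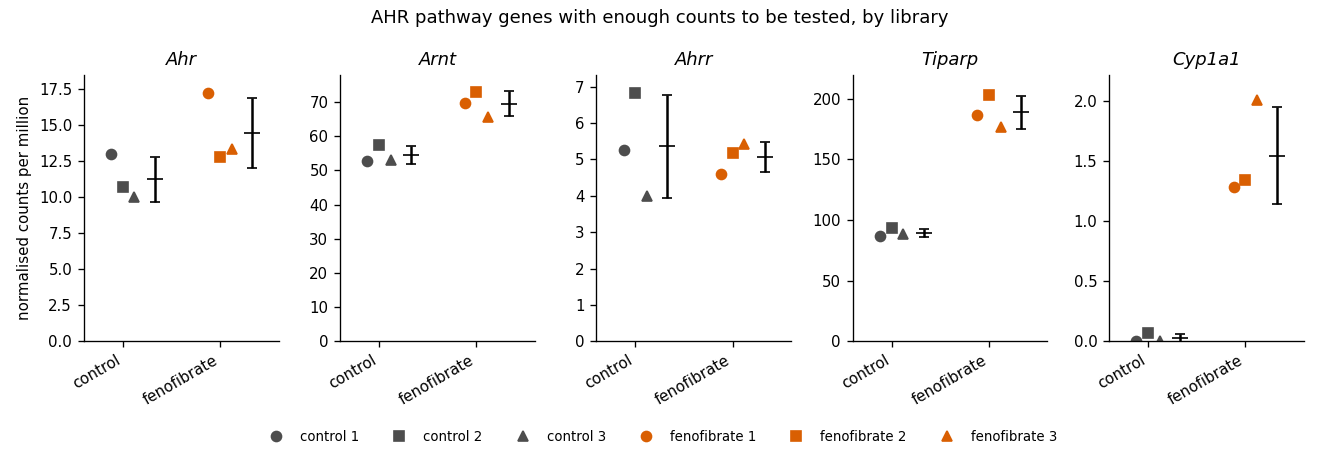
Normalised CPM (y axes, each from 0) of the 5 AHR pathway genes with enough counts to be tested, by group (x axis). Each point is a library, and the black bar is the mean ± SD of 3 libraries. Arnt, Tiparp and Cyp1a1 separate the groups, with Tiparp at 189 against 89.4, while the values of Ahr and Ahrr overlap.

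Cyp1a1, the aryl hydrocarbon hydroxylase and the classic readout of an active AHR, was all but absent in control and appeared in every fenofibrate library. Cyp1a1 (ENSMUSG00000032315, chr9:57687928-57703824) had 0, 1 and 0 counts in control and 17, 19 and 29 with fenofibrate. Its summed CPM were 62.9-fold higher with fenofibrate, with a counting interval from 10.9 to 2524 that is wide because a single control read carries the denominator. Without control replicate 2, which held that read, the fold was 13.8 against a limit of 3 counts over the other controls. That value leaves out the counting error of the fenofibrate counts, so it is not a lower bound. The highest level, 1.97 CPM in fenofibrate replicate 3 (exact Poisson 95% interval 1.32 to 2.83), was still low in absolute terms: 7.58% of the genes tested had a lower mean FPKM over the 3 fenofibrate libraries than Cyp1a1.

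Cyp1b1, the CYP1 enzyme of tissues outside the liver, had more counts with fenofibrate but unevenly. Cyp1b1 (ENSMUSG00000024087, chr17:79701537-79715061) had 7, 3 and 0 counts in control and 23, 13 and 4 with fenofibrate. Fenofibrate replicates 1 and 2 lay above every control and replicate 3 lay inside the control range. The Poisson 95% intervals of replicate 1 (14.6 to 34.5 counts) and replicate 3 (1.09 to 10.2 counts) did not overlap, so these libraries of the same group differed by more than counting error. The summed CPM were 3.87-fold higher (counting interval 1.90 to 8.68), and 2.41-fold without fenofibrate replicate 1, 5.32-fold without fenofibrate replicate 3, 8.66-fold without control replicate 1 and 2.60-fold without control replicate 3. Among the fenofibrate libraries the one with the fewest Cyp1b1 counts had the most Cyp1a1 counts, and the one with the most Cyp1b1 counts had the fewest of Cyp1a1. For Cyp1a1 the Poisson 95% intervals of replicate 1 (9.90 to 27.2 counts) and replicate 3 (19.4 to 41.6 counts) overlapped. No relation between these genes is read from so few libraries. The related gene Cyp1a2, best known from the liver, had 0 counts in all 6 libraries.

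**Figure D2:**
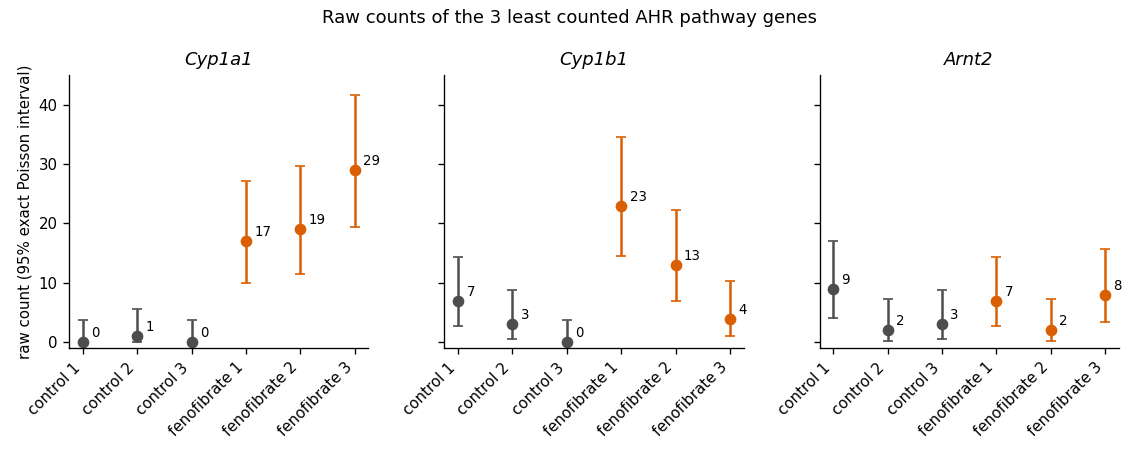
Raw counts (y axis) of Cyp1a1, Cyp1b1 and Arnt2 in each library (x axis), with exact Poisson 95% intervals that cover counting error only. Cyp1a1 goes from at most 1 count to 17 or more, Cyp1b1 runs from 23 down to 4 within the fenofibrate group, and Arnt2 overlaps throughout.

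Windows of 300 bases around the RefSeq start (GRCm38.p6, 250 bases before to 50 after) were found for 6 of the 7 genes and searched for the response element core GCGTG on both strands. The core occurred in 5 of the 6 windows, while 32.4% of all 32851 windows of that length hold it. The windows of Cyp1a1, Cyp1b1 and Tiparp, whose summed counts were higher with fenofibrate, each held 1 core. Ahrr, whose level did not separate the groups, held 3, a number reached by 3.92% of all windows. These 4 upstream runs are shown because they set the 3 target genes with higher summed counts beside the repressor gene, and are cut where an annotated exon begins. Each is written 5′ to 3′ on the strand of its gene, with the core in capitals (CACGC where it lies on the other strand). They lie at chr9:57697363-57697612 (Cyp1a1, forward strand), chr17:79715062-79715311 (Cyp1b1, reverse), chr3:65528197-65528409 (Tiparp, forward) and chr13:74292332-74292581 (Ahrr, reverse). The Cyp1a1 run lies before the RefSeq start but inside the gene span given above, which begins further upstream.
Cyp1a1: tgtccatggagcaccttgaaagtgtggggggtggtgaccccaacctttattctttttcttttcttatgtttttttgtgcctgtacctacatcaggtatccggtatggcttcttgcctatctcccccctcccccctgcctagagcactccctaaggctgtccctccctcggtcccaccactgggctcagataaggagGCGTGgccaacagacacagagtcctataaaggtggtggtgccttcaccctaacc
Cyp1b1: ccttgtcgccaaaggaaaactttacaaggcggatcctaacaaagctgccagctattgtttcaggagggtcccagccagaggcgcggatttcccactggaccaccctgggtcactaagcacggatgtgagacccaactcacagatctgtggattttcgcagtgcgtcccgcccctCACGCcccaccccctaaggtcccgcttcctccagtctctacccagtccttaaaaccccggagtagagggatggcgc
Tiparp: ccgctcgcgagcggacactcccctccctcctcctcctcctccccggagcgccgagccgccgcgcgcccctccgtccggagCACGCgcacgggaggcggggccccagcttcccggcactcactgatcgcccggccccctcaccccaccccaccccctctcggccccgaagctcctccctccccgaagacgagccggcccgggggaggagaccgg
Ahrr: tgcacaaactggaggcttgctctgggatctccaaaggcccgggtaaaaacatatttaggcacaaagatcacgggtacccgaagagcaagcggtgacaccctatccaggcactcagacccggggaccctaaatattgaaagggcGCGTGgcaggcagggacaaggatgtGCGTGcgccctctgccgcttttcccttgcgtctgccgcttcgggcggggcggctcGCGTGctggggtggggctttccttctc
The first base of the core lay 54 bases before the start in Cyp1a1, 76 in Cyp1b1 and 170 in Tiparp, and 107, 82 and 27 bases before it in Ahrr. The longer form TNGCGTG, which contains the core, was present once, in Ahrr as TCGCGTG, and in 5.07% of all windows. The Arnt window held 1 core, 29 bases before the start, and the Arnt2 window held none. The windows differ in base composition, from 54% G and C in Cyp1a1 to 73.7% in Tiparp and 76.7% in Arnt2. A match describes the letters of the window and not binding, and the well-studied response elements of Cyp1a1 lie further upstream than this window reaches.

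Of the 7 genes, 5 had enough counts to enter the test across all genes, and 3 of them (Arnt, Cyp1a1 and Tiparp) passed an adjusted p of 0.05, all higher with fenofibrate (edgeR quasi-likelihood test). Of the 13629 genes tested, 39.1% passed: 19.5% were higher and 19.5% lower. The groups did not overlap for the same 3 genes, against 53.3% of the genes tested, and 26.4% when only genes higher with fenofibrate are counted. Since these values chose the genes, nothing is read from the shares. Cyp1a1 entered the test through its fenofibrate counts alone, and Cyp1b1 and Arnt2 did not enter it.

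Levels of different genes were compared per length, in the deposited FPKM. In control Tiparp led at 17.2 ± 0.662 FPKM, followed by Arnt at 4.21 ± 0.200, Ahr at 1.74 ± 0.247 and Ahrr at 0.479 ± 0.128 (n = 3 per group, mean ± SD). No value of these 4 genes overlapped that of its neighbour in this order. The control levels of Cyp1b1 (0 to 0.0602 FPKM), Arnt2 (0.0103 to 0.0478) and Cyp1a1 (0 to 0.0176) overlapped and have no order beyond their spread. With fenofibrate the first 4 genes stood in the same order, at 35.1 ± 2.60, 5.17 ± 0.283, 2.16 ± 0.359 and 0.436 ± 0.0361 FPKM. Cyp1a1, at 0.375 ± 0.0979 FPKM, then lay near Ahrr (0.396 to 0.466), with replicates 1 and 2 (0.311 and 0.327) below every Ahrr value and replicate 3 (0.488) above. Cyp1b1 stood at 0.112 ± 0.0836 and Arnt2 at 0.0289 ± 0.0163 FPKM, and these overlapped.

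The length behind the deposited FPKM was 1.06 times the merged exon length for Ahr, 1.64 times for Arnt, 1.80 times for Arnt2 and 1.21 to 1.46 times for the other 4 genes. On the merged length, an alternative chosen after the data were seen, control Tiparp stood at 20.9, Arnt at 6.92, Ahr at 1.85 and Ahrr at 0.578, in the same order. The fenofibrate means were 42.5 for Tiparp, 8.51 for Arnt, 2.29 for Ahr, 0.526 for Ahrr and 0.544 for Cyp1a1, so the means of the last pair changed places. Arnt was 2.45 ± 0.363 times Ahr in control and 2.44 ± 0.415 times with fenofibrate in deposited FPKM (mean ± SD of the ratio within each library, n = 3 each), so the ratio differed between the groups by less than its spread. The same ratio on the merged length was 3.79 ± 0.562 and 3.77 ± 0.643. Tiparp was 4.09 ± 0.0459 times Arnt in control and 6.78 ± 0.151 times with fenofibrate in deposited FPKM, with no overlap.

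**Figure D3:**
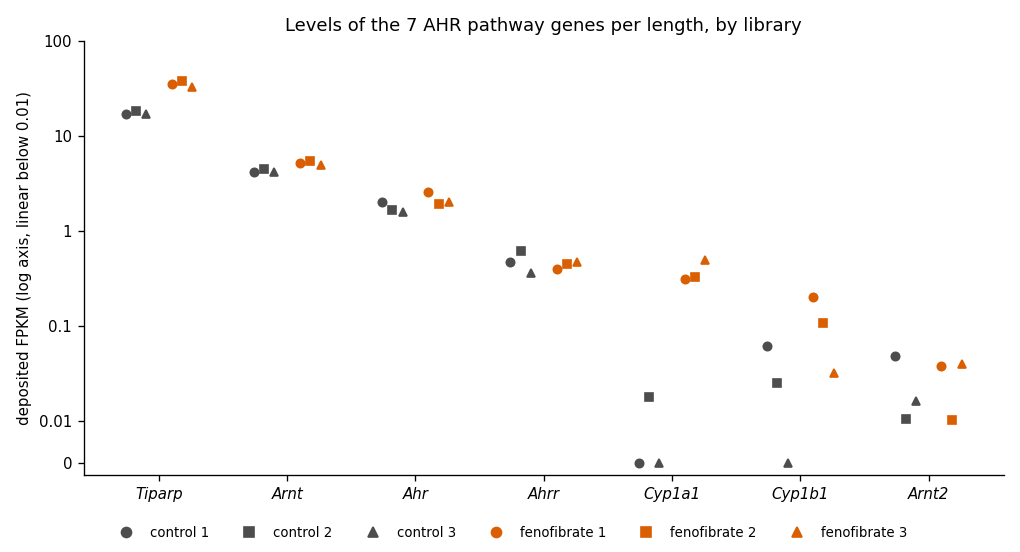
Deposited FPKM (y axis, logarithmic, linear below 0.01) of the 7 genes (x axis), with a point for each library. Tiparp, Arnt, Ahr and Ahrr keep 1 order in both groups, and Cyp1a1 with fenofibrate (0.311 to 0.488) has points below and above those of Ahrr.

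The rest of the pathway was read through 9 lists with 65 further genes in the table, of which 48 could be tested, 17 were higher with fenofibrate, 8 were lower and 23 were not called. Their median log2 fold change was 0.09, beside 0.00 over all genes tested. The 17 include Il6 and Npas4, which entered the test through their fenofibrate counts alone. Of all genes tested, 39.1% were called, 19.5% higher and 19.5% lower, and every count of called genes below stands beside these shares. Adjusted p values are from edgeR's quasi-likelihood test over all 13629 genes. These lists too were written with earlier results of these data known, so their counts and adjusted p values are descriptions and no independent support. With no strand stated for the libraries, a gene that overlaps another can hold its reads.

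Of the 8 other enzymes of the AHR gene battery, 3 could be tested and all 3 were higher, with a median log2 fold change of 0.52. Nqo1, a quinone reductase driven by both AHR and NRF2, was at 2.99 ± 0.594 normalised CPM in control and rose 1.92-fold to 5.77 ± 0.132 (n = 3 per group, mean ± SD, adjusted p = 0.00453). Its counts were 34, 52 and 40 in control and 77, 83 and 81 with fenofibrate, with no overlap. The glutathione transferase genes Gsta1 (1.43-fold, adjusted p = 0.00883) and Gsta2 (1.25-fold, adjusted p = 0.00422) rose too, but they are close copies and reads may be split between them. Cyp1a2, Ugt1a6a and Ugt1a6b had no counts in any library, and the aldehyde dehydrogenase gene Aldh3a1 and the glucuronosyltransferase gene Ugt1a7c had 1 and 2 counts in all, all with fenofibrate.

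Genes outside drug metabolism that AHR has been reported to induce went both ways: of 12, 8 were tested, 3 rose, 2 fell and 3 were not called (median 0.07). The interleukin gene Il6 rose from 5, 1 and 0 counts to 34, 34 and 24, a log2 fold change of 3.87 ± 0.60 SE. It counts among the 3 that rose and in the median, but it entered the test through its fenofibrate counts alone, so nothing is read from its call. Without control replicate 1, which held most of the control counts, its log2 fold change was 5.64. The immune cell markers moved with it, at 4 summed counts in control and 42 with fenofibrate, and their part in this result was not tested. The Notch target gene Hes1 was at 2.51 ± 0.679 normalised CPM in control and rose 3.56-fold to 8.93 ± 1.13 (n = 3 per group, mean ± SD, adjusted p = 0.000514). Sos1, a RAS exchange factor gene, was 1.29-fold lower (adjusted p = 0.00269) and the cell cycle inhibitor gene Cdkn1b 1.22-fold lower (adjusted p = 0.0227). The amino acid transporter gene Slc7a5 rose 1.11-fold (adjusted p = 0.0190). The call of Cdkn1b was lost without control replicate 2 or 3 (adjusted p = 0.0573 and 0.0661). That of Slc7a5 was lost without control replicate 1 or 2 or fenofibrate replicate 1 or 2 (adjusted p from 0.0571 to 0.0727). Serpinb2, Ereg and Ido1 had no counts in any library.

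The genes of the proteins that hold, degrade and assist the receptor showed small RNA changes in both directions. Of 4 genes of the cytosolic complex tested here, 2 fell and 2 were not called (median -0.12): the chaperone gene Hsp90ab1 was 1.13-fold (adjusted p = 0.0114) and the cochaperone gene Ptges3 1.10-fold lower (adjusted p = 0.0352). The call of Ptges3 was lost without any control or without fenofibrate replicate 1 or 3 (adjusted p from 0.0663 to 0.102). Of 5 degradation genes, the ubiquitin ligase genes Rbx1 (1.17-fold, adjusted p = 0.0205) and Stub1 (1.16-fold, adjusted p = 0.0173) rose and 3 were not called (median -0.01). Stub1 shares 1084 exon bases with Jmjd8 on the other strand. Rbx1 was not called without control replicate 1 or fenofibrate replicate 3 (adjusted p = 0.0690 and 0.0598), nor Stub1 without control replicate 1 or 2 or fenofibrate replicate 2 (adjusted p from 0.0501 to 0.0566).

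Of 11 coregulator genes, 2 rose, 2 fell and 7 were not called (median 0.09). The acetyltransferase gene Ep300 rose 1.24-fold (adjusted p = 0.00996) and Calcoco1, a coactivator gene, 1.21-fold (adjusted p = 0.0285). The corepressor gene Nrip1 was 1.26-fold lower (adjusted p = 0.00785), and Ncoa2, a p160 coactivator gene, 1.18-fold lower (adjusted p = 0.0218). Calcoco1 was not called without control replicate 1 or 3 or fenofibrate replicate 1 (adjusted p from 0.0746 to 0.0941). Ncoa2 was not called without control replicate 1 or 2 or fenofibrate replicate 2 or 3 (adjusted p from 0.0564 to 0.0690).

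Several of the other bHLH-PAS factors share ARNT with AHR. Of 12 genes, 7 were tested, 4 rose, Npas4 among them, and 3 were not called (median 0.28). Hif1a, the hypoxia factor gene whose product also pairs with ARNT, was at 278 ± 1.64 normalised CPM in control and rose 1.22-fold to 339 ± 8.76 (n = 3 per group, mean ± SD, adjusted p = 0.000724). Its relative Epas1 rose 2.23-fold (adjusted p = 0.00200), with 80, 95 and 80 counts in control and 227, 158 and 179 with fenofibrate. The clock gene Arntl rose 2.37-fold (adjusted p = 0.000197). Npas4, a factor that neurons induce on activity, went from 2, 0 and 2 counts to 22, 12 and 11 (log2 fold change 3.39 ± 0.68 SE). It counts among the 4 that rose and in the median, but it entered the test through its fenofibrate counts alone, so nothing is read from its call. Sim1, Sim2 and Npas2 had no counts. Hif3a and Npas1 were too low to be tested, with 8 and 3 summed counts in control and 1 and 0 with fenofibrate.

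Among 8 genes for enzymes that turn tryptophan into AHR ligands, Ido1 and Tdo2, which start that route, had no counts in any library. Ido2, also on this list, was too low to be tested, with 2, 0 and 2 counts in control and 0 in every fenofibrate library. Of the 4 tested, 2 rose and 2 were not called (median 0.57). Kyat1, a kynurenine aminotransferase gene, was at 4.83 ± 1.35 normalised CPM in control and rose 1.88-fold to 9.06 ± 0.397 (n = 3 per group, mean ± SD, adjusted p = 0.00896). Il4i1, the gene of a secreted amino acid oxidase, had 14, 12 and 10 counts in control and 37, 31 and 17 with fenofibrate (2.37-fold, adjusted p = 0.0296). That call was lost without any control or without fenofibrate replicate 1 or 2 (adjusted p from 0.0571 to 0.0927). Il4i1 shares 3423 exon bases with Tbc1d17 and 82 with Atf5 on the other strand, and 97 with Nup62 on its own strand. Over all libraries Tbc1d17 had 1458 counts, Atf5 10797 and Nup62 7546. Of the PARP genes most like Tiparp, Parp12 fell 1.19-fold (adjusted p = 0.0213; from 0.0527 to 0.0625 without control replicate 1 or 3 or fenofibrate replicate 1), and the other one tested was not called.

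The genes of the partners that pass electrons to P450 enzymes split, with 1 of 4 higher, 1 lower and 2 not called (median 0.00). Cyb5r3, a cytochrome b5 reductase gene, rose 1.35-fold (adjusted p = 0.000293) and Cyb5b fell 1.17-fold (adjusted p = 0.00324). Outside the CYP1 members, 129 genes carry a Cyp symbol, of which 95 had no counts in any library and 13 were tested. Of these 13, 6 rose, 1 fell and 6 were not called (median 0.29). The largest rises were those of Cyp26b1, the retinoic acid hydroxylase gene (3.81-fold, adjusted p = 0.000611), Cyp4f13 (1.73-fold, adjusted p = 0.00225) and Cyp2j9 (1.70-fold, adjusted p = 0.00663). Cyp51, a sterol demethylase gene of cholesterol synthesis, was 1.23-fold lower (adjusted p = 0.00144). The Cyp2j and Cyp4f genes are families of close copies between which reads may be split.

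**Figure D4:**
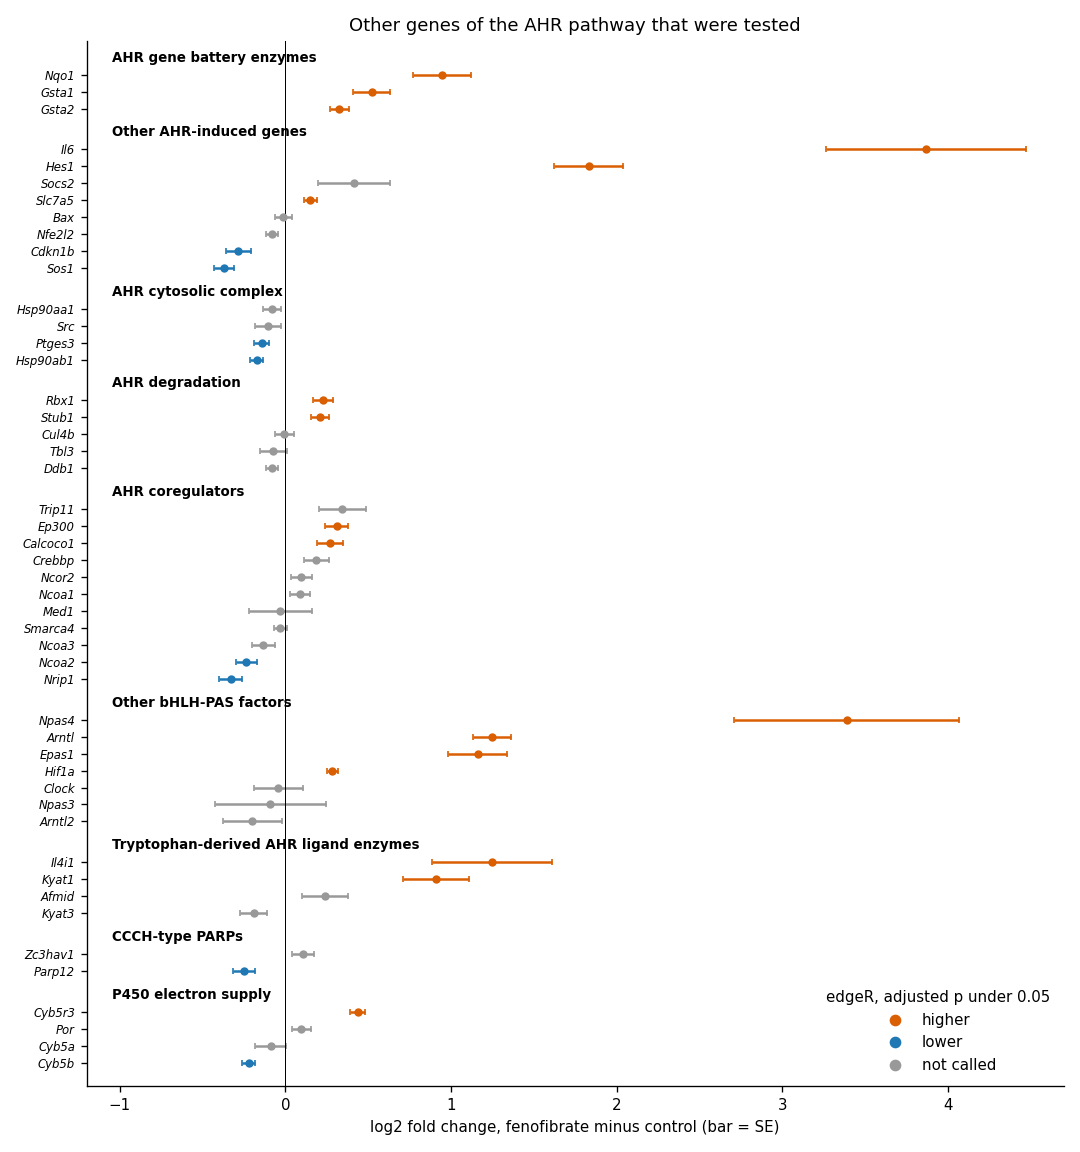
Log2 fold change, fenofibrate minus control (x axis, bars are SE), of the 48 tested genes of the AHR pathway lists other than the 7 members, grouped by list (y axis). Orange points are higher and blue points lower at an adjusted p of 0.05, and grey points were not called. Il6 (3.87) and Npas4 (3.39) have the largest values, and both entered the test through their fenofibrate counts alone. The cytosolic complex and degradation genes lie near 0.

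The genes whose log2 CPM followed each tested member most closely over the 6 libraries were found by Pearson's r among 13628 others, as a description only. For Tiparp these were Tle3 (r = 0.999), Mafk (0.999) and Pja2 (0.998), for Cyp1a1 Klhl28, Gm15801 and Abca5 (0.998 each), and for Arnt Ube2h (0.999), Rsph3a (0.996) and Scp2-ps2 (0.996). For Ahr they were Nol11 (0.990), Uggt1 (0.988) and Fgf11 (0.988), and for Ahrr Bud31 (0.984), Psmd9 (0.974) and Zc3h12c (0.972). All these values rest on the same 6 libraries in 2 groups, and members whose groups separate share a high r with many genes. An r over 0.95 was reached by 1152 genes for Tiparp, 844 for Cyp1a1 and 601 for Arnt, against 38 for Ahr and 13 for Ahrr.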

How the data were processed

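RNA was sequenced from 3 control and 3 fenofibrate-treated (50 µM) libraries, grouped by title. The deposited table gives raw counts per gene and the authors' FPKM values per the file headers. The submitters' processing notes name HISAT2 2.0.4, StringTie 1.3.0 and GRCm39 without their roles. Counting tool, strand and filters are not given in the sources used here. Gene coordinates in the file are those of GRCm38: GENCODE M21 lists 99.8% of its IDs, 98.7% of them at identical positions. The deposited FPKM equals the count over a fixed length per gene and the library total (tolerance 0.1%).

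The count test was run with edgeR 4.0.16 under R 4.3.3 (filterByExpr, TMM, glmQLFit, glmQLFTest), with p values adjusted by Benjamini-Hochberg over the 13629 genes kept and a call at 0.05. An SE is the absolute log2 fold change over the square root of F. Normalised CPM use TMM-scaled totals. Intervals of low counts are exact Poisson and of ratios of summed counts exact binomial (Clopper-Pearson), at 95%. Alternatives were DESeq2 1.42.0, upper quartile scaling, no filter, a replicate block, leaving out each library, and limma 3.58.1 on log2(FPKM + 0.5) and log2(FPKM + 0.1). On simulated data with 13470 genes tested, the edgeR step recovered 54% of the genes altered 1.5-fold, 94% of those altered 2-fold, 92% for 4-fold and 96% for 8-fold (50 genes each). Of its 177 calls 9 were false. The simulation altered only 50 genes for each fold, while 39.1% of the genes tested were called in the data. These rates therefore need not hold for this comparison.

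The members and lists were chosen with earlier results of these data known. Named are all members, from each list the called genes (up to 4 with values) and the genes without counts, up to 3 P450 genes each way, and the 3 genes most correlated with each tested member. Members were left out of the counts of other lists. Protein sequences were not used here, and 1 gene of the lists is not reported here.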

Additional observations from a re-analysis of the deposited data

How the results depend on the processing

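Across 12 alternatives, 4248 to 5349 genes were called against 5326, and Arnt, Cyp1a1 and Tiparp stayed above 0 and called in each. These genes were chosen with fold changes of the same libraries known, and Cyp1a1 entered the test through its fenofibrate counts alone. Nothing is read from the persistence of their calls. Ahr had log2 fold changes from 0.22 to 0.48 over all settings. Ahrr ran from -0.26 to 0.13 when a library was left out, and was above 0 only without control replicate 2. Cyp1a1 depended most on the setting: its fitted log2 fold change was 5.58, 7.44 without control replicate 2, 2.15 on log2(FPKM + 0.1) and 0.79 on log2(FPKM + 0.5), since a pseudocount shrinks a gene near 0. Without a filter, Cyp1b1 had a log2 fold change of 1.98 and Arnt2 of 0.28. Among the list genes and the other P450 genes, the calls of Ptges3 and Il4i1 were each lost in 8 of the 12 alternatives. Those of Slc7a5, Calcoco1 and Cyp2j6 were lost in 7, of Stub1 in 5 and of Rbx1 and Ncoa2 in 4. That of Parp12 was lost in 3, of Cdkn1b in 2 and of Ep300 in 1, and the other called genes named kept theirs. Cyp2j6, a P450 gene outside the lists, was 1.15-fold higher with fenofibrate (edgeR quasi-likelihood test, adjusted p = 0.0250). The replicate block called 4540 genes and 4 members, Ahr being the one added. Deviations of same-numbered libraries correlated at 0.020, 0.010 and -0.023, so the numbers were not taken as pairs. Depth limits Cyp1a1, Cyp1b1 and Arnt2, with at most 29 counts in a library.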
